A study of Mus musculus with 2 samples.

Results

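The secreted signals of the Fgf, Bmp, Gdf and Tgfb families, with the Fgf receptors, were compared between the wild-type fetal mouse ear and the ear of fetuses that lack the muscle-determining genes Myf5 and Myod1. Members were chosen by symbol alone: a gene entered if its name is Fgf, Fgfr, Bmp, Gdf or Tgfb followed by a number and an optional letter, or is Inha, Inhba, Inhbb or Mstn, and if the platform annotation pairs a probe set with that gene alone. This gave 53 of 19938 named genes, each with 1 probe set. They are 22 genes named Fgf, 4 Fgf receptors, 25 ligands of the Tgfb superfamily, the protease Bmp1, and the kinase Bmp2k. Bmp2k matches the rule by spelling and is not a ligand. Of the 22, 4 encode intracellular proteins that are not receptor ligands. Gdf1 shares its only listed probe set with Cers1 and was therefore not a member; its log2 signal was 7.55 for wild-type RNA and 7.61 for double-knockout RNA.

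The data were 2 Affymetrix arrays of total RNA from the BALB/c fetal ear at E18.5, shortly before birth. The first array held wild-type RNA, and the second held RNA of the Myf5-/-:MyoD-/- genotype on the same BALB/c background, a combination in which skeletal muscle scarcely forms. The labels do not describe the null alleles. Neither the dissected portion of the ear nor the number of fetuses behind each array is stated in the labels. With 1 array per genotype there was no replicate check and no test, and every difference below describes these 2 arrays. Where a gene is said to have read a pair of values, they are log2 signals with the wild type first and the double knockout next, and a difference is the second value less the first.

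Fgf ligands bind receptor tyrosine kinases on neighbouring cells and need heparan sulfate to do so, and the cells answer with feedback inhibitors such as the Sprouty proteins. Bmp, Gdf, activin and Tgfb ligands are dimers that assemble type I and type II receptor kinases, which phosphorylate Smad proteins. In the ear, Fgf signals induce the otic placode and pattern the organ of Corti, and Bmp signals shape the cristae, the middle ear and the cartilage of the outer ear. In skeletal muscle, myostatin, the product of Mstn, is a secreted brake on growth, and Fgf6 is made largely by the muscle lineage.

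Of the 53 members, 36 read above the floor on 1 array or both. The floor is the median over all probe sets of that array, 5.65 and 5.70 on the log2 scale, and lower values were set equal to it. Of these 36 members, 32 read above the floor on both arrays, 4 only with wild-type RNA and 0 only with double-knockout RNA. The other 17 read below it on both. A member above the floor in the wild type alone passed because it was high there, so its direction carries no weight of its own.

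Mstn was 2-fold or more lower in the double knockout, and it was the sole member to differ that far in either direction. That is 1 of 36 members lower, or 2.78%, where 1.71% of the 12458 genes above the floor were 2-fold or more lower, and 0 of 36 higher, where 0.482% of all genes were. At 1.5-fold or more, 3 members were lower, Mstn, Fgf7 and Fgf16, which is 8.33% of 36 against 3.62% of all genes. At that size 0 members were higher, against 2.25% of all genes. Each of these shares rests on 1 to 3 genes. Mstn and Fgf16 were above the floor in the wild type alone, so their direction carries no weight of its own. Among the 32 members measured on both arrays, Fgf7 alone reached 1.5-fold and none reached 2-fold.

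**Figure D1:**
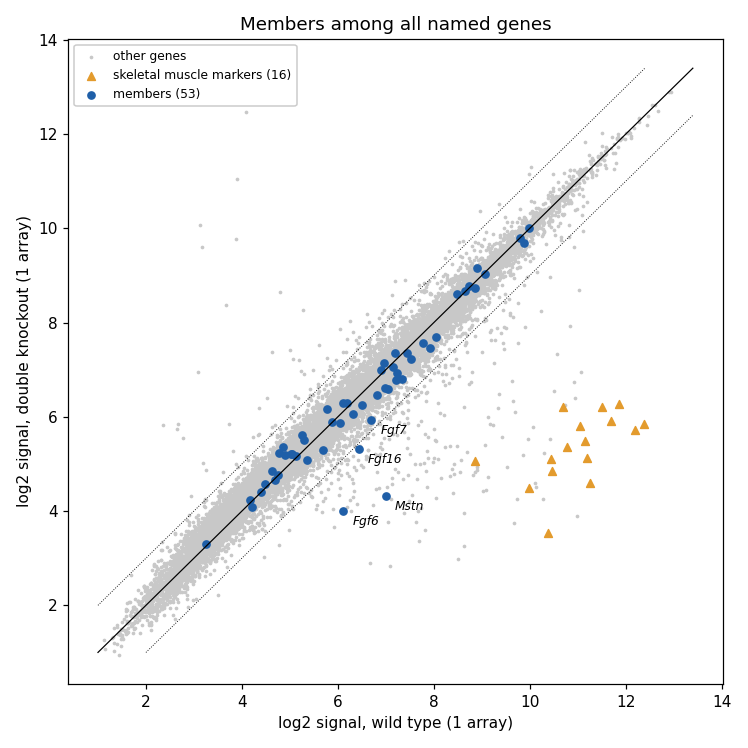
Log2 signal in the double knockout (vertical axis) against the wild type (horizontal axis) for all 19938 named genes, with the 53 members in blue and 16 skeletal muscle markers as orange triangles; the solid line is equality and the dotted lines mark 2-fold without a floor. Most members lie along the line of equality, with Mstn, Fgf6 and Fgf16 below the lower dotted line, while all 16 muscle markers lie far below it.

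Of the targeted genes, Myod1 read 6.95 and 6.38 and Myf5 read 5.94 and 5.25. Neither value checks the labels firmly, since where the probes lie relative to the deletions is not stated.

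Markers of muscle and of some other tissues differed between the arrays. The marker lists were chosen with earlier results of these data known, so their counts describe and do not test. A marker above the floor on 1 array alone passed because it was high there. All 16 skeletal muscle markers were 2-fold or more lower in the double knockout, and their summed linear signal was 38187 with wild-type RNA and 726 with double-knockout RNA, where 9 of them read below the floor. Of 8 salivary gland markers, 7 were 2-fold or more higher and 0 lower, with summed signals of 207 and 10805, and 7 of the 8 read below the floor in the wild type. Of 9 adipocyte markers above the floor 3 were 2-fold or more higher, with sums of 6890 and 11744. Of 7 cortical neuron markers 5 were 2-fold or more higher, with sums of 512 and 1315, and 3 of the 7 were above the floor only in the double knockout. Of 6 tendon markers 3 were 2-fold or more lower, with sums of 2833 and 1469. All 6 smooth muscle markers were below 0 and 1, Acta2, was 2-fold or more lower, with sums of 3370.5 and 2060. Of 8 macrophage and neutrophil markers above the floor 1, Ngp, was 2-fold or more lower, with sums of 1654 and 1266. Of 5 epidermis markers above the floor 2, Krt1 and Krt10, were 2-fold or more higher, with sums of 1175 and 1473 over all 7. Every sum in this paragraph covers all markers of a list with a probe set of their own, also those below the floor. Of 11 inner ear markers, 9 were above the floor and within 2-fold, with sums of 4239 and 4177, but 3 of the 11, Otoa, Atoh1 and Slc26a4, carried exactly the same value on both arrays. Cartilage markers summed to 3118 and 3358, with all 7 above the floor within 2-fold. All 4 bone markers with a probe set of their own were within 2-fold, with sums of 2335 and 2610. All 5 endothelium markers were also within 2-fold, with sums of 2811 and 2804. In whole-tissue RNA, fewer cells of a type and less RNA per cell cannot be told apart. The part that tissue content plays in the values of the members was not tested.

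Mstn encodes myostatin, which is made by skeletal muscle and limits its growth. It read 7.00 and 4.32 (probe set 10346250). With the low value raised to the floor, this is a bound of at least 2.46-fold lower for Mstn. Without a floor the difference was -2.68 on the log2 scale. Gdf11, the closest relative of myostatin and a regulator of axial patterning that many tissues express, read 7.23 and 6.93, a difference of -0.29. Mstn thus crossed the floor between the arrays and Gdf11 did not.

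Fgf6 belongs to the Fgf4 subfamily and is known from developing muscle. It read 6.11 and 3.99. The wild-type signal lay so near the floor that the bound is at least 1.33-fold lower, whereas without a floor the difference was -2.12. Its chromosomal neighbour Fgf23, an endocrine ligand of bone, read 5.04 and 5.22, below the floor on both arrays. The remaining members of the subfamily, Fgf4, an early embryonic factor, and Fgf5, which limits hair growth, were also below it on both. Fgf4 read 4.63 and 4.86, and Fgf5 read 5.37 and 5.09.

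Myf5 and MyoD bind the E-box, whose letters are CANNTG, so the 250 bases before the RefSeq start are shown for Mstn and Fgf6, the ligands known from muscle, and for Gdf11, the relative of Mstn that stayed above the floor. The sequences are from RefSeq on build GRCm38.p6 and run 5′ to 3′ on the gene's strand, with each CANNTG match in capitals. They lie at chr1:53061390-53061639 on the plus strand for Mstn, chr10:128891719-128891968 on the minus strand for Gdf11, and chr6:127015292-127015541 on the plus strand for Fgf6.
Mstn: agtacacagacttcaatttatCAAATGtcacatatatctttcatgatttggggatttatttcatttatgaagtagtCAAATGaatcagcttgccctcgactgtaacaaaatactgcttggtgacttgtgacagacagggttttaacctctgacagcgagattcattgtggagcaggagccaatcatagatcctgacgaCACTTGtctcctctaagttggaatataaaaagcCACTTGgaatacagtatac
Gdf11: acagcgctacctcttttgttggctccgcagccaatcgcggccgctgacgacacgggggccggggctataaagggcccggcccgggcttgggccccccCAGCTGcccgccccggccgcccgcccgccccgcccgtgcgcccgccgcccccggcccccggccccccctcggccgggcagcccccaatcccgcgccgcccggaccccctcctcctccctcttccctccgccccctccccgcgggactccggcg
Fgf6: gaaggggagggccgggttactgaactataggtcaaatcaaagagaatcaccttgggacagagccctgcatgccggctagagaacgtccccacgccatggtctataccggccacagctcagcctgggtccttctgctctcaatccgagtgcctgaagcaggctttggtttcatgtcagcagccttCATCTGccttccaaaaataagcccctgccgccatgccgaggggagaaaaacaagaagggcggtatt
The Mstn window held 4 matches, beginning 229, 174, 52 and 19 bases before the start. The Gdf11 window held 1, at 153 bases, which is also a match to the narrower letters CAGCTG, and the Fgf6 window held 1, at 66 bases. Both motifs read the same on either strand, and every CAGCTG match is also a CANNTG match. A CANNTG match was common: 66.2% of 32851 windows of all genes held at least 1, and 51.5% of the 33 windows found for 26 of the 36 members above the floor. Of the 44 windows found for 37 of the 53 members, 54.5% held a CANNTG match. The median over all windows was 1 such match, and the share of windows with 4 or more was not counted. CAGCTG stood in 13.0% of all windows, in 15.2% of the 33 and in 13.6% of the 44. A match is a description of the letters and not of binding.

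**Figure D2:**
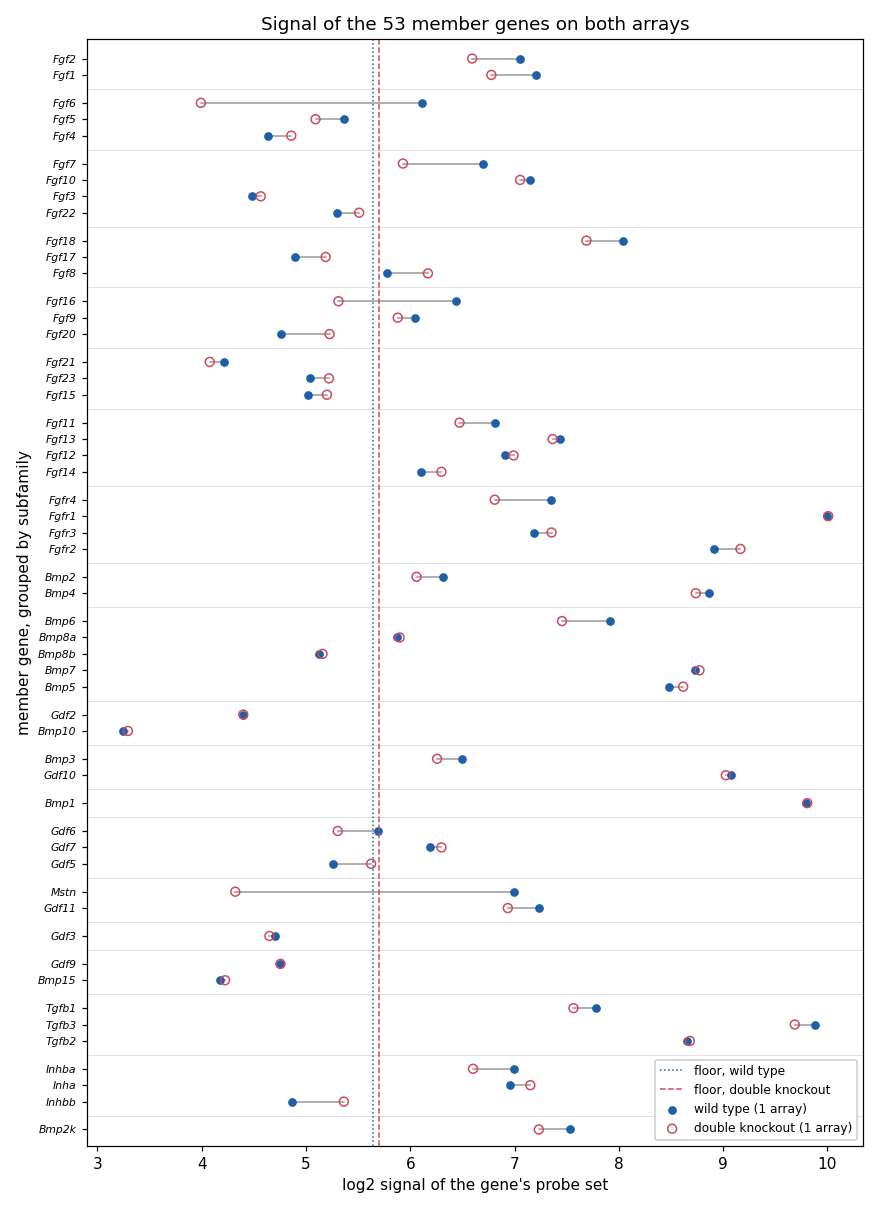
Log2 signal of the probe set of each of the 53 members, grouped by subfamily, in the wild type (filled blue) and the double knockout (open red), with a dotted and a dashed line at the floor of each array; every point is 1 array, and levels of different probe sets are not comparable with each other. Mstn, Fgf6 and Fgf16 cross from the right of the floor in the wild type to the left of it in the double knockout, and Gdf6 does so by a narrow margin.

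The Fgf7 subfamily holds ligands that mesenchyme sends to epithelium. Fgf7, the keratinocyte growth factor, read 6.70 and 5.93, 1.70-fold lower, a difference of -0.77 that was -0.45 with a pseudocount in place of the floor. Its double-knockout value was close to the floor of 5.70. Fgf7 lay outside the central 95% of all genes measured on both arrays, a range from -0.60 to 0.55. That is 1 of the 32 members so measured, or 3.12%, where 5% of those genes lie outside by construction. Fgf10, which acts on the same epithelial receptor form and is needed for the semicircular canals, read 7.15 and 7.05, a difference of -0.09. Fgf3, an inducer of the otic placode, read 4.49 and 4.57, and Fgf22, a synaptic organizer, read 5.30 and 5.51. Both lay below the floor on both arrays. Fgf3 is next to Fgf4 and Fgf4 next to Fgf15 among protein-coding genes, and none of these 3 neighbours read above the floor on either array.

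In the Fgf9 subfamily, Fgf16, which brown fat and heart are known to express, read 6.44 and 5.31, at least 1.67-fold lower. Without a floor its difference was -1.13. All 9 adipocyte markers above the floor had differences above 0, and whether fat or heart content bears on the Fgf16 values was not tested. Fgf9, an epithelial signal to the mesenchyme around the otic vesicle, read 6.04 and 5.88, a difference of -0.16. Fgf20, which outer hair cells and supporting cells of the cochlea require, read 4.76 and 5.23, below the floor on both arrays.

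The Fgf8 subfamily split in sign. Fgf8, which inner hair cells send to pillar cells, read 5.77 and 6.17, 1.32-fold higher, the largest difference towards the double knockout among the 36 members. Its wild-type signal was close to the floor. Fgf18, a regulator of cartilage and bone growth, read 8.04 and 7.69, 1.28-fold lower, and Fgf17 read 4.89 and 5.19, below the floor on both arrays. Fgf1 and Fgf2, which leave cells without a signal peptide, were lower by similar amounts. Fgf1 read 7.20 and 6.78, a difference of -0.43, and Fgf2 read 7.05 and 6.59, a difference of -0.46.

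The intracellular Fgf proteins do not act through the receptors and instead modulate voltage-gated sodium channels. All 4 read above the floor on both arrays. Fgf11 read 6.81 and 6.47, a difference of -0.34. Fgf12 read 6.91 and 6.99, Fgf13 read 7.43 and 7.36, and Fgf14 read 6.10 and 6.30. The differences of these last 3 were 0.08, -0.07 and 0.19, so of all 4 there were 2 below 0 and 2 above. Cortical neuron markers were higher in the double knockout, and their bearing on these 4 genes was not tested. The endocrine ligands, which need Klotho co-receptors, were below the floor on both arrays: Fgf15 read 5.02 and 5.20, and Fgf21, a hormone of liver, fat and stressed muscle, read 4.21 and 4.08.

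All 4 Fgf receptors read above the floor on both arrays and were within 1.5-fold. Fgfr4, which muscle progenitors express, was the lowest relative to the wild type, with 7.35 there and 6.81 in the double knockout, 1.45-fold lower. Fgfr1, the main receptor of mesenchyme, read 9.99 and 10.01, and Fgfr3, the receptor of pillar cells and growth plate cartilage, read 7.19 and 7.35. Fgfr2, whose epithelial form receives Fgf7 and Fgf10, read 8.91 and 9.17, a difference of 0.26. The list of 8 muscle progenitor markers includes the deleted Myf5 and Myod1, and also Myog and Myf6, which act in differentiation. Of the 6 that were not deleted, 5 were above the floor, and 2 of these, Myf6 and Myog, were 2-fold or more lower and 0 higher. Myf6 and Myog were above the floor with wild-type RNA alone. Cdh15 and Cd82, measured on both arrays, differed by -0.87 and -0.22. Pax7, above the floor with wild-type RNA alone, was lower by less than 2-fold with or without a floor. Pax3 was below the floor on both arrays. The summed signals over the 6 were 1327 and 794, of which Cd82 gave 728 and 625. The bearing of progenitor content on Fgfr4 was not tested.

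Among the Bmp ligands every difference was within 1.5-fold. Bmp6 was furthest from 0, with 7.92 and 7.45, 1.38-fold lower. Its relatives were closer: Bmp5, the gene of the short ear mutation and a builder of outer ear cartilage, read 8.48 and 8.62, Bmp7 read 8.73 and 8.77, and Bmp8a read 5.87 and 5.90. The differences of these 3 were 0.14, 0.05 and 0.02, and that of Bmp8a changed sign under 2 of 4 other scalings of the arrays. Bmp8b read 5.13 and 5.16, below the floor on both. Bmp4, a marker of the cristae and of supporting cells, read 8.87 and 8.74, a difference of -0.13. Bmp2, which acts through the same receptors, read 6.31 and 6.06, a difference of -0.25.

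Bmp3, an antagonist within the family, read 6.49 and 6.26, a difference of -0.24, and its relative Gdf10 read 9.08 and 9.02. Gdf2 and Bmp10, circulating ligands of the endothelial receptor Acvrl1, were below the floor on both arrays. Gdf2 read 4.40 on each, the same value to the last deposited digit, and Bmp10 read 3.24 and 3.29. Bmp1, which trims procollagens and frees myostatin from its propeptide, read 9.79 and 9.81. Bmp2k read 7.53 and 7.23, a difference of -0.30.

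The Gdf5 subfamily, known for joints, was near or below the floor. Gdf5 read 5.26 and 5.62, below the floor on both. Gdf6 read 5.69 and 5.30. Its wild-type value lay between the floors of the arrays, so no fold can be given. Gdf7, known from the dorsal spinal cord, read 6.19 and 6.30, a difference of 0.11. The oocyte factors and the early embryonic Gdf3 were below the floor on both arrays: Gdf9 read 4.76 on each, again identical, Bmp15 read 4.17 and 4.22, and Gdf3 read 4.70 and 4.65.

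The 3 Tgfb ligands, which control matrix production and tendon formation, were all above the floor on both arrays. Tgfb1 read 7.78 and 7.56, a difference of -0.21. Tgfb2, required for the normal inner ear, read 8.65 and 8.68, a difference of 0.03. Tgfb3 read 9.88 and 9.69, a difference of -0.19. Of the activin and inhibin subunits, Inhba, which forms activin A, read 6.99 and 6.60, 1.31-fold lower. Inha, the inhibin alpha subunit, read 6.96 and 7.15, a difference of 0.19, and Inhbb, the activin B subunit, read 4.86 and 5.36, below the floor on both.

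Across the members, 35 of 36 differences were within 2-fold. Of the 32 members measured on both arrays, 19 were below 0 and 13 above, or 59.4% below, where 51.2% of the 11626 genes measured on both arrays were below 0. Their median was -0.11, against -0.01 for those genes. Over all 36 members with low values at the floor, the median was -0.15, against -0.01 for the 12458 genes. The 36 include 4 that passed through the wild type alone and 0 through the double knockout alone, against 450 and 382 of the 12458. With no floor, the median was 0.00 over all 53 members and 0.03 over all 19938 genes. Among members measured on both arrays, the 11 genes named Fgf had a median of -0.16, the 4 receptors of 0.09, and the 15 superfamily ligands of -0.13. The 11 include the 4 intracellular genes, which are not receptor ligands and had a median of 0.01. For scale, the differences of probe sets that report on a single gene had a standard deviation of 0.17 (619 genes with several), a measure of probe noise and not of animals. Of the 32 members, 13, or 40.6%, differed by less than this, as did 59.5% of all genes measured on both arrays. The 17 members below the floor on both arrays read between 3.24 and 5.62 and differed by -0.28 to 0.50, and these values have no order.

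**Figure D3:**
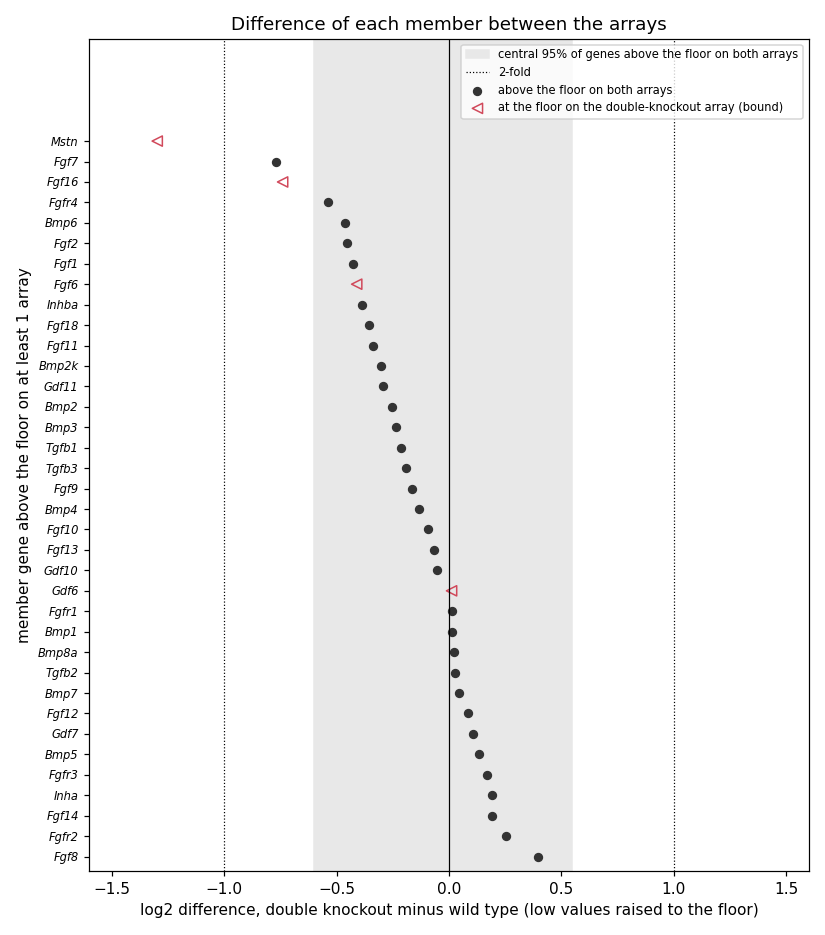
Log2 difference, double knockout minus wild type, of the 36 members above the floor on 1 array or both, with low values raised to the floor; filled points were measured on both arrays, open triangles mark bounds, with the double-knockout value at the floor, dotted lines mark 2-fold, and the grey band is the central 95% of all genes measured on both arrays, from -0.60 to 0.55. Mstn alone lies beyond 2-fold, Fgf7 and Fgf16 lie between the band and 2-fold, and Fgf8 is the highest at 0.40.

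The other genes of the pathways were read from 8 lists that together held 119 genes, of which 115 had a probe set of their own and 103 were above the floor. Of these 103, 2 were 2-fold or more lower and 0 higher, which is 1.94% lower against the 1.71% of all genes. The pair were Hjv and Fgfrl1.

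Hjv encodes hemojuvelin, a Bmp co-receptor of skeletal muscle and liver that acts in iron control. It read 9.52 and 4.93, at least 14.1-fold lower. The other co-receptors of its family were within 2-fold, with Rgma at 7.61 and 7.92 and Rgmb at 8.46 and 8.23. The kinase receptors were within 1.5-fold: Bmpr1a was the furthest below 0, at -0.46, and Bmpr2 differed by -0.11. Eng, the endothelial co-receptor, differed by 0.06. The 15 receptors and co-receptors above the floor had a median of -0.13.

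Fgfrl1 encodes a receptor-like protein without a kinase that is needed for the diaphragm. It read 9.05 and 8.04, 2.01-fold lower, and fell just short of 2-fold under 4 other scalings of the arrays. The heparan sulfate carrier Gpc3 differed by -0.24 and its relative Gpc4, named after its values were seen, by -0.66. Flrt2 differed by 0.13, and Klb, the co-receptor for Fgf21, was the furthest above 0, with 5.68 and 6.20. The 12 modulators above the floor had a median of -0.10.

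Feedback inhibitors and targets of Fgf signalling had a median of -0.08 over 15 genes, all within 1.5-fold. Spry4 was the furthest below 0, with 7.73 and 7.22, and Spred3 the furthest above, at 0.24. Cyclin D1, from Ccnd1, differed by -0.35 and Spred1 by -0.05. Spry1, Spry2 and Dusp6, feedback inhibitors named after their values were seen, differed by -0.39, -0.38 and -0.36. Others of the list did not share this: Dusp4, Spred2 and Il17rd differed by -0.08, -0.04 and 0.01. Spry3 was above the floor in the double knockout alone. The Ets factors Etv1 and Etv5 differed by 0.05 and -0.21. The second probe set of Etv5 differed by 0.05. That of Il17rd, below the floor in the double knockout, differed by -0.22.

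Antagonists of Bmps, activins and Gdfs had a median of -0.04 over 18 genes, all within 1.5-fold. Nbl1 was the lowest at -0.26 and Tmeff1 the highest at 0.20. Fst, the antagonist of activin and myostatin, named after its values were seen, read 7.71 and 7.45, and the abundant Fstl1 and Twsg1 differed by -0.13 and -0.11. Genes that store and activate Tgfb, with the proprotein convertases, had a median of -0.22 over 16 genes. Of the 15 measured on both arrays, 14 were below 0, as were 69.7% of the 99 pathway genes so measured and 51.2% of all genes. Itgb6, the epithelial integrin subunit that frees Tgfb1, read 6.37 and 4.88, at least 1.59-fold lower, and Pcsk5 differed by 0.18. Ltbp4, a binding protein of latent Tgfb named after its values were seen, read 9.07 and 8.44, a difference of -0.63, while Dcn and Thbs1 differed by -0.14 and -0.08.

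The downstream genes above the floor were all within 1.5-fold. The 12 Smads and their regulators had a median of -0.06, all within 1.5-fold, with the ubiquitin ligase Smurf2 lowest at -0.32, Smad5 highest at 0.08, and Smad4 and Ski at -0.01 and -0.22. The 11 Bmp targets had a median of -0.03, with Bambi at -0.20, Id2 at 0.32 and Id3 at 0.08. The 9 Tgfb targets above the floor had a median of -0.16, with Postn lowest at -0.49, Skil highest at 0.07 and Col1a1 at -0.10. Of the 9, 8 were below 0, or 88.9%, against 69.7% of the pathway genes and 51.2% of all genes measured on both arrays. Smad6, Smad7, Bambi and Skil each stand in more than 1 of these lists.

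**Figure D4:**
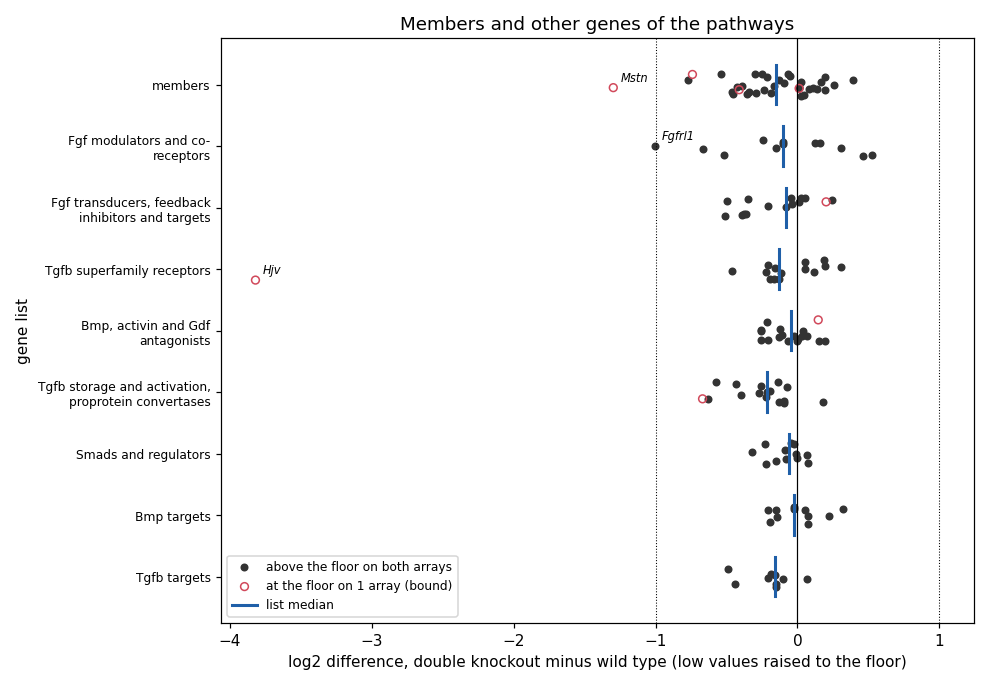
Log2 difference, double knockout minus wild type, of the members and of 8 lists of other pathway genes, for genes above the floor on 1 array or both; filled points were measured on both arrays, open points were at the floor on 1 array and are bounds, blue bars are list medians and dotted lines mark 2-fold. Mstn, Hjv and Fgfrl1 are the points at or beyond 2-fold, and the list medians lie between -0.22 and -0.03.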

How the data were processed

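Total RNA from the fetal ear was hybridized to 2 Affymetrix arrays, 1 per genotype. The authors deposited 1 log2 value per probe set and array; their range, 0.75 to 13.27, is the basis for taking the logarithm as base 2. Per the submitters' processing notes the tool was MAS5 (no version); how it was applied to this whole-transcript platform is not stated, so the summarisation behind the log2 values is unsettled here. Not given in the sources used here are the background correction, the scaling between arrays and the genome build. Of 35557 probe sets, 1227 (3.45%) carried exactly the same value on both arrays, among them those of 2 members, and the source of these ties was not tested. The number of arrays limits the precision.

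Genes were named from the platform annotation, which paired 21789 probe sets with 1 gene; all 53 members matched a RefSeq gene. Per gene the probe set of highest mean linear signal was kept. Values below each array's 50th percentile were raised to it, and a fold with 1 side there is a bound. The difference is log2 double knockout minus log2 wild type, counted at 2-fold. Python 3.11.15 with pandas 2.3.3 was used, and the calculation was checked on simulated data. The members, the subfamilies and the pathway and marker lists were chosen with earlier results of these data known. All members were named; for each pathway list the rule named the 2 genes of highest signal, those of 2-fold or more and the furthest in each direction. Other scalings, floors, probe-set rules and fold sizes were tried.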

Additional observations from a re-analysis of the deposited data

How the results depend on the processing

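The count of members 2-fold or more lower was 1 and was 1 under quantile normalization, equal medians, loess, equal trimmed means without muscle genes, the median over probe sets and a pseudocount. It was 3 (Mstn, Fgf6 and Fgf16) with the floor at the 25th percentile or with no floor, and 0 with a floor at the 75th percentile, where 15 members were left and Mstn was not among them. At 1.5-fold it was 3 and at 3-fold 0. The count of pathway genes 2-fold or more lower was 2; it was 5 at 1.5-fold and 1 at 3-fold, and it was also 1 under quantile normalization, equal medians, loess, equal trimmed means without muscle genes and the pseudocount, 3 with the floor at the 25th percentile or no floor, and 2 in the other settings. No member or pathway gene was 2-fold or more higher under any of these settings. The median over members ranged from -0.16 to 0.01, with no floor at 0.00 and with the pseudocount at 0.01. Single members moved by more than the spread between probe sets in 4 of 36 cases without a floor, in 2 with the pseudocount and in 0 under the 4 scalings. Signal near the floor limits Mstn, Fgf6 and Fgf16 to bounds, and Fgf7 was close to the floor in the double knockout. No paired analysis was possible because each group holds 1 array.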
